A study of Mus musculus with 8 samples.

Results

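The binding of nuclear factor I (NFI) proteins was examined at 8 genes of granule neuron maturation, Gabra6, Grin2c, Etv1, Wnt7a, Tiam1, Cntn2, Cdh2 and Efnb1, out of 21951 protein-coding genes in the annotation. Peaks were taken as belonging to a gene when the summit lay inside its gene body, or when the nearest protein-coding transcription start site (TSS) within 100 kb was that of the gene. This gave 111 peaks, which merged into 39 regions of the 46070 in the series. The study immunoprecipitated NFIA, NFIB or NFIX together with the DNA they were bound to and sequenced that DNA (ChIP-seq), in granule neuron progenitors dissociated from mouse cerebellum on postnatal day 7. There were 2 libraries per factor, named here by the mice they came from: 1 from a mixed background, which the labels liken to outbred CD1 (Mixed), and 1 from CD1. The labels name no mutation or treatment, and do not say whether animals were pooled or whether the libraries came from separate animals, so any spread between libraries may be technical. The 2 input samples were not analysed here. The sample labels and the series text name different NFIB antibodies, and which was used is not settled here. Peak lists carry no RNA levels, so the cell type label was not checked against marker genes and nothing below is a level of expression.

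Granule neuron progenitors divide in the outer layer of the postnatal cerebellum, leave the cell cycle, migrate inward past the Purkinje cells and then form dendrites and synapses with mossy fibres. NFI proteins bind DNA as dimers at a palindrome with the arms TTGGC and GCCAA, and more weakly at a single arm. They are known in this lineage for acting on axon extension, migration and dendrite formation. Among the 8 genes, Gabra6 and Grin2c encode receptor subunits of mature granule neurons, Etv1 a transcription factor, Wnt7a a secreted signal, Tiam1 a regulator of the cytoskeleton, and Cntn2, Cdh2 and Efnb1 proteins of the cell surface.

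The sequence around the Gabra6 start site is shown because 5 of 6 libraries had a peak summit in it, more than in the RefSeq promoter window of any other of these genes. The window runs from 250 bases before to 50 bases after the RefSeq start (GRCm38.p6, chr11:42321023-42321322, minus strand, printed 5′ to 3′ along the gene). Capitals mark the single NFI element, TTGGCA read on the opposite strand.
Gabra6: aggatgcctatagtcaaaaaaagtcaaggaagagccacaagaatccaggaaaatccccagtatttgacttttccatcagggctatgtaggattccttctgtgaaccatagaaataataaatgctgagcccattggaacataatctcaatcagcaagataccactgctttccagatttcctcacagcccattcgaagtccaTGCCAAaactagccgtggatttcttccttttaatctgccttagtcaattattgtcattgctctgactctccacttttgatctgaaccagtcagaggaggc
The RefSeq table had windows for 7 of the 8 genes, 9 windows in all. The element TTGGCA, searched on both strands, was in 3 of the 9 windows, 1 each of Gabra6, Etv1 and Tiam1, and in 14.1% of all 32851 promoter windows of this length. These are the 40 bases around each match, printed along the gene with the element in capitals (chr11:42321100-42321139, minus strand; chr12:38783509-38783548, plus strand; chr16:89974725-89974764, minus strand).
Gabra6: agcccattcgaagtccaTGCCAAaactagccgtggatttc
Etv1: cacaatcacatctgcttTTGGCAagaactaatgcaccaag
Tiam1: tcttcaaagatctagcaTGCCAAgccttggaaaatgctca
Peaks of 5 libraries covered the Gabra6 element, and peaks of 0 libraries covered the Etv1 or Tiam1 element, whose nearest summits lay 5.22 kb and 15.1 kb away. The Etv1 and Tiam1 windows with the element lay at internal starts. Both Tiam1 windows (chr16:89974650-89974949 and chr16:89818303-89818602) were inside the gene, which starts at chr16:90143769. The promoter at the main Tiam1 start was therefore not searched for motifs. The full palindrome, with 5 bases between its arms, was in 0 of the 9 windows and in 0.0365% of all windows. The window of Cntn2 was the other one with a summit, in NfiB Mixed alone, and held 2 single arms, TTGGC on opposite strands, but neither TTGGCA nor the palindrome. A single arm, which TTGGCA and the palindrome contain, was in 6 of the 9 windows and in 46.7% of all windows. Of the other motifs searched on both strands, the NFAT core GGAAAA was in 3 of the 9 windows (23.4% of all windows), in Gabra6, Etv1 and Tiam1. The E-box CAGATG was in 2 (17.2% of all), the E-box CAGCTG in 1 (16.3%), TATAAA in 1 (13.6%) and the ETS core CCGGAAG in 0 (8.86%).

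The lists held 7497 to 36431 peaks. The shortest, NfiX CD1, stood apart from the rest, the next having 16993 peaks. A peak carries a fold enrichment as the authors' peak caller gave it. This is the ratio of fragments at its summit to the local background, with a constant added to each. It is therefore lower than the plain ratio, most of all where the background is low. Because each list was made separately, folds are compared below through the percentile of a peak within its own list, where 50 is the middle of the list. A library without a peak has no value at that place, which does not show that the factor was absent there.

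All 8 genes had at least 1 region, against 47.2% of all protein-coding genes. In NfiB Mixed 8 of the 8 genes had a peak (40% of all genes), and in NfiB CD1 also 8 (40.9%). For NFIA the count was 7 in the Mixed library (32.9% of all genes) and 5 in the CD1 library (25.5%). For NFIX it was 7 in the Mixed library (30.1%) and 4 in the CD1 library (15.1%). A region with a peak of all 6 libraries, called common here, was found at 3 of the 8 genes, Wnt7a, Cntn2 and Cdh2, against 12.9% of all protein-coding genes. The count was 1 with lists of equal length (Wnt7a) and 1 with gene bodies alone (Cdh2). The share of all genes was not worked out under these settings, and the 12.9% does not apply to them. The 8 genes are long: their median body was 40.6 kb, against 17.4 kb for all. Among genes of 30 kb or more, 25.2% had a common region, as did 3 of the 5 genes of that length here. Among shorter genes the share was 6.24%, and Gabra6, Grin2c and Efnb1, the 3 short ones here, had none. With a region in 5 or 6 libraries, the count was 5 of 8 genes, against 21.4% of all. Among genes of 30 kb or more it was 4 of 5, against 39.2%. The median number of common regions was 0 for the 8 genes and 0 for all genes.

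Of the 39 regions, 4 were seen in 6 libraries, 3 in 5, 8 in 4, 4 in 3, 8 in 2 and 12 in 1. Common regions thus made up 10.3% of the regions here, against 13.2% of the 46070 regions of the series. Gene bodies held 21 regions, 9 lay upstream of a gene and 9 downstream. Both NfiB libraries had a peak in 23 regions, both NfiA libraries in 7 and both NfiX libraries in 5. All 3 factors were found in at least 1 library in 14 regions, and 13 regions had NfiB peaks alone. The shares of all regions of the series with these patterns were not worked out, so the counts are not particular to these genes. The NfiB lists were the longest, with 33283 peaks in Mixed and 36431 in CD1. With every list cut to its 7497 strongest peaks, an alternative chosen after seeing the data, both NfiB libraries had a peak in 3 regions, both NfiA libraries in 2 and both NfiX libraries in 4. All 3 factors were then found in 4 regions, and 0 regions had NfiB peaks alone. Regions in 4 or more libraries had a median mean percentile of 64.7, and those in 1 library one of 16.8, with a highest value of 29.9. The median percentile of the peaks at these genes was 37.1 in NfiA Mixed, 62.4 in NfiA CD1, 53.2 in NfiB Mixed, 43.7 in NfiB CD1, 58.4 for the Mixed and 49.9 for the CD1 library of NFIX, on both sides of the middle of a list.

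**Figure D1:**
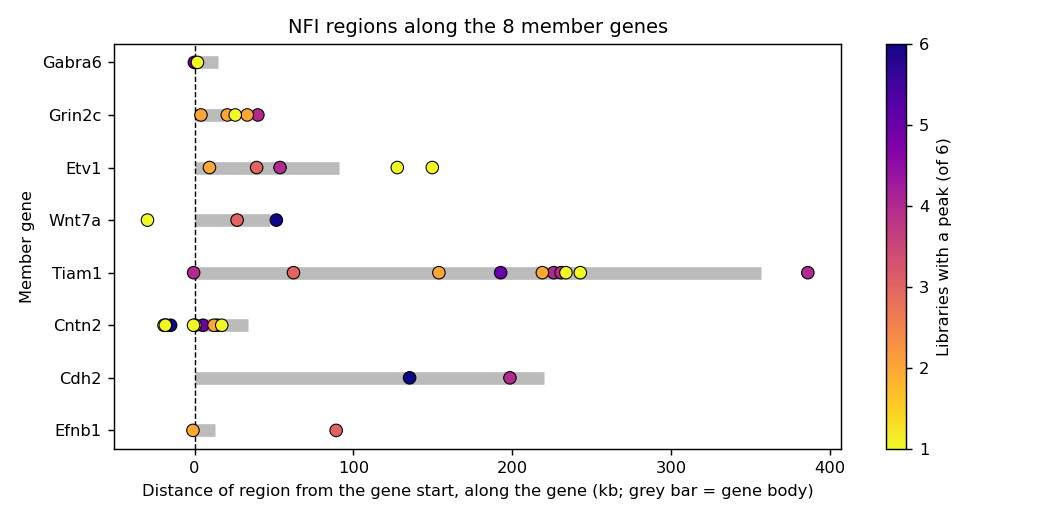
Positions of the 39 regions along the 8 genes, in kb from the gene start in the direction of the gene; grey bars are gene bodies and the colour of a point gives the number of libraries with a peak, from 1 to 6. The 4 regions seen in all 6 libraries lie outside the gene body of Wnt7a and Cntn2 and inside that of Cdh2.

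Of the receptor subunit genes, Gabra6 encodes the alpha6 subunit of GABA-A receptors, made by granule neurons late in their maturation. Its promoter region (chr11:42320796-42321347, mm10) was seen in 5 of 6 libraries, with a fold of 11.4 in NfiA Mixed, 16.0 in NfiB Mixed, 9.15 in NfiB CD1, 11.5 for NfiX Mixed and 6.98 for NfiX CD1. NfiA CD1 had no peak at Gabra6. The percentiles were 93.1 in NfiA Mixed, 96.8 in NfiB Mixed, 79.8 in NfiB CD1, 89.95 for NfiX Mixed and 67.0 for NfiX CD1. By fold each peak thus stood in the upper part of its list. Ranked by −log10 q, the significance value of the peak caller, the percentiles ran from 90.6 in NfiB Mixed to 47.8 in NfiX CD1. The Mixed library ranked above the CD1 library for NFIB and NFIX. Summits in 5 or 6 libraries within 1 kb of a TSS were found at 2.86% of protein-coding genes, and at 1 of the 8 genes here. For comparison, a summit within 1 kb of a TSS in any library was found at 17.5% of genes and at 5 of the 8. The summit lay 80 bp upstream of the start in NfiA Mixed, 102 bp in NfiB Mixed, 97 bp in NfiB CD1, 34 bp in NfiX Mixed and 36 bp in NfiX CD1. The centre of the TTGGCA element lies 47.5 bp upstream of the start, and the summits were 11.5 to 54.5 bp from it. The element thus lay inside the peak of each of the 5 libraries, between the NfiX summits and those of NfiA and NfiB. A further Gabra6 region, in an intron 1.85 kb from the start, had a peak in NfiX Mixed alone with a fold of 4.82. The nearest other protein-coding gene, Gabrb2, which encodes a beta subunit of the same receptors, was 98.6 kb from the promoter region.

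**Figure D2:**
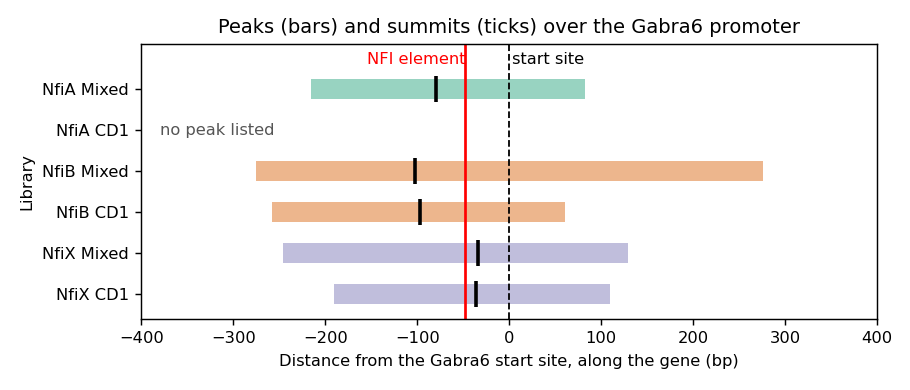
Peaks over the Gabra6 promoter by library, with distance from the start site in bp on the horizontal axis; bars are peaks, black ticks their summits, the red line the centre of the TTGGCA element and the dashed line the start site. The 5 summits lie 34 to 102 bp upstream of the start, and NfiA CD1 has no peak.

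Grin2c encodes the GluN2C subunit of NMDA receptors, which replaces GluN2B in maturing granule neurons. It had 5 regions, the most recurrent in 4 libraries, with folds of 3.40 in NfiA Mixed, 4.40 in NfiB Mixed, 4.49 in NfiB CD1 and 4.28 in NfiX Mixed (chr11:115227125-115227553). By fold, all 11 Grin2c peaks were low in their lists, with percentiles of 7.00 to 31.3. Ranked by −log10 q, the most recurrent region stood at percentiles of 27.2 in NfiA Mixed to 58.7 in NfiB Mixed. That region and 3 others lay 2.55 to 21.8 kb past the end of Grin2c, inside Tmem104, so the nearest-TSS rule rather than position in the gene ties them to Grin2c. The region in the gene itself, in an intron 4.06 kb from the start, had a fold of 3.80 in NfiB Mixed and 4.20 in NfiX Mixed. The receptor subunit genes thus differed in the rank of their peaks: the median percentile was 84.9 over the 6 Gabra6 peaks and 23.4 over the 11 Grin2c peaks.

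The transcription factor gene Etv1 encodes an ETS protein of the PEA3 group that is expressed in granule cells. It had 5 regions, none of them common and none with a peak in NfiA CD1 or NfiX CD1. The strongest, in an intron 53.8 kb from the gene start and 4.17 kb from an internal start (chr12:38832811-38833415), had a fold of 7.47 in NfiA Mixed, 10.5 in NfiB Mixed, 7.12 in NfiB CD1 and 6.99 in NfiX Mixed. The next (chr12:38818321-38818731), 1.05 kb upstream of another internal start, had a fold of 5.87 in NfiB Mixed, 4.69 in NfiB CD1 and 9.19 in NfiX Mixed. The rank of that region was highest in NfiX Mixed, at a percentile of 81.2, while it was 55.5 in NfiB Mixed and 31.1 in NfiB CD1. An intronic region 9.42 kb from the start was seen in both NfiB libraries, and 2 regions past the gene end were seen in 1 library each.

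The secreted signal among these genes is Wnt7a, a Wnt ligand that granule cells release onto mossy fibre terminals. Its gene held the highest-ranked region of these genes (chr6:91359539-91360131), 4.14 kb past the end of the gene and 51.5 kb from its main start, in intergenic sequence. The fold was 14.7 in NfiA Mixed, 11.98 in NfiA CD1, 19.4 in NfiB Mixed, 18.6 in NfiB CD1, 12.8 for NfiX Mixed and 8.36 for NfiX CD1. These stood at percentiles of 97.4 in NfiA Mixed, 94.5 in NfiA CD1, 98.5 in NfiB Mixed, 97.8 in NfiB CD1, 92.6 for NfiX Mixed and 80.8 for NfiX CD1. The NfiB libraries were highest and NfiX CD1 lowest. Summits of the 6 libraries lay within 43 bp of each other. The nearest other protein-coding gene body, Fbln2, was 87.3 kb away. An intronic region 26.8 kb from the start (chr6:91384222-91384698) had a fold of 4.50 in NfiA Mixed, 6.14 in NfiB Mixed and 6.18 in NfiB CD1, and no NfiX peak. The remaining Wnt7a region, 29.6 kb upstream inside the noncoding RNA gene 1810044D09Rik, had a peak in NfiB Mixed alone, with a fold of 2.71. The Wnt7a promoter window had no peak.

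The depth behind these folds is the number of fragments at the summit, which was worked out from the fold and p-value of each peak. At the Wnt7a region the count was 101 in NfiA Mixed (95% exact Poisson interval 82.3 to 122.7), 62 in NfiA CD1 (47.5 to 79.5), 141 in NfiB Mixed (118.7 to 166.3), 132 in NfiB CD1 (110.4 to 156.5), 68 in NfiX Mixed (52.8 to 86.2) and 40 in NfiX CD1 (28.6 to 54.5). The local background there was 3.90 to 6.32 fragments. The Gabra6 promoter rested on fewer fragments, 35 in NfiA Mixed (24.4 to 48.7), 50 in NfiB Mixed (37.1 to 65.9), 30 in NfiB CD1 (20.2 to 42.8), 27 in NfiX Mixed (17.8 to 39.3) and 15 in NfiX CD1 (8.40 to 24.7). Its background of 1.29 to 2.39 fragments was also lower. Its folds are therefore less precise than those at Wnt7a. Over all peaks at these genes the summit held 9 to 141 fragments, with a median of 30.

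**Figure D3:**
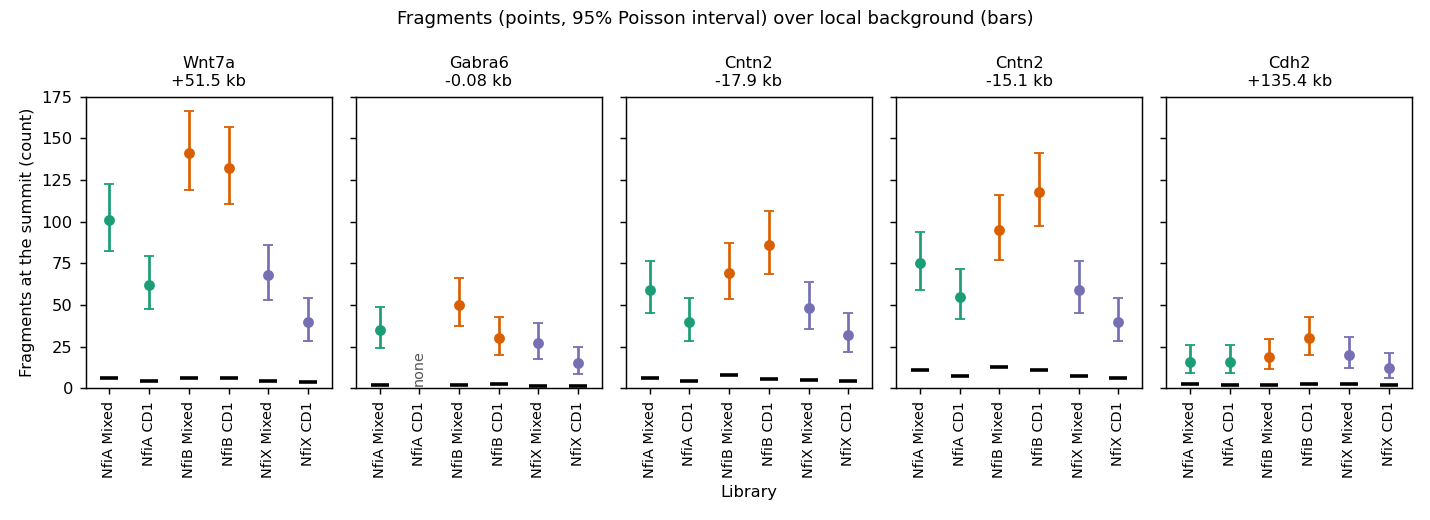
Fragments at the summit (points, with 95% exact Poisson intervals that cover counting error only) and local background (short black bars) by library at the Wnt7a, Gabra6, Cntn2 and Cdh2 regions, each named by its distance from the gene start. Wnt7a in NfiB Mixed has the highest count, 141, over a background of 6.32 fragments.

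The cytoskeletal regulator Tiam1 is an exchange factor that activates the GTPase Rac. With a body of 357 kb it is the longest of these genes, and it had 10 regions, 6 of them in 3 or more libraries. NfiX CD1 had no peak at any of them. The intronic region 192.8 kb from the gene start (chr16:89950770-89951219) was seen in the other 5 libraries, with a fold of 4.86 in NfiA Mixed, 4.03 in NfiA CD1, 7.46 in NfiB Mixed, 7.46 in NfiB CD1 and 4.66 in NfiX Mixed. The NfiB peaks were the higher ones there, at percentiles of 72.4 in Mixed and 69.2 in CD1, while the percentile was 36.7 in NfiA Mixed, 10.6 in NfiA CD1 and 22.6 in NfiX Mixed. A region 29.5 kb past the gene end (chr16:89757420-89757775) had the highest mean percentile of fold of this gene, 76.4. Its fold was 10.02 in NfiA CD1, 7.41 in NfiB Mixed, 7.83 in NfiB CD1 and 7.81 in NfiX Mixed, with no peak in NfiA Mixed. These peaks rested on 18 to 22 fragments. Ranked by −log10 q, they stood at percentiles of 56.2 to 75.6, against 56.5 to 81.6 for the region described next. Another region, intronic and 1.41 kb from an internal start (chr16:89917305-89917762), had a fold of 5.34 in NfiA Mixed, 8.36 in NfiA CD1, 6.05 in NfiB Mixed and 7.98 in NfiB CD1, with the CD1 library above the Mixed one for both factors and no NfiX peak. The region at the main start, 0.564 kb upstream of it (chr16:90144243-90144583), was seen in 4 libraries but ranked low, with folds of 2.92 to 3.64 and a mean percentile of 5.57. In contrast to Gabra6, the promoter-proximal region of Tiam1 thus had the lowest mean percentile of fold of its 10 regions. Its summits held 31 to 53 fragments over a high local background of 9.83 to 15.1. Ranked by −log10 q, its percentiles were 16.1 to 54.8, higher than by fold in each library with a peak. Only the NfiB CD1 peak then stood above the middle of its list.

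Of the cell surface genes, Cntn2 encodes contactin 2, also called TAG-1, an adhesion protein of the axons that young granule neurons extend. It had 10 regions and was the only one of the 8 genes with more than 1 common region. The farther one lay 17.9 kb upstream of the start (chr1:132560917-132561339), with a fold of 8.29 in NfiA Mixed, 7.20 in NfiA CD1, 7.55 in NfiB Mixed, 12.9 in NfiB CD1, 8.15 for NfiX Mixed and 5.98 for NfiX CD1. The nearer one lay 15.1 kb upstream (chr1:132557815-132558701), with a fold of 6.19 in NfiA Mixed, 6.55 in NfiA CD1, 7.03 in NfiB Mixed, 9.93 in NfiB CD1, 7.35 for NfiX Mixed and 5.50 for NfiX CD1. NfiB CD1 was highest and NfiX CD1 lowest at both. These regions lie between Cntn2 and Nfasc, whose gene body ends 3.57 kb and 6.38 kb from them, so the rule's choice of Cntn2 does not tie them to 1 of these genes. An intronic region 5.30 kb from the start (chr1:132537698-132538196) was seen in all libraries but NfiX CD1, with folds of 5.64 to 9.88.

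A further Cntn2 region of 4 libraries (chr1:132528634-132529052, folds 2.71 to 5.06) lay in an intron of the coding transcript that a retained-intron transcript contains. Its central bases, read from that transcript (chr1:132528810-132528910, minus strand), are shown because this was the only summit of the recurrent regions, those in 3 or more libraries, that annotated exons of these genes covered. The stretch held 1 single NFI arm, in capitals, but neither TTGGCA nor the palindrome.
Cntn2: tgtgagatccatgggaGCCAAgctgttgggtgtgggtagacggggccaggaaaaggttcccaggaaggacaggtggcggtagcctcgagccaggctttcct

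Cdh2 encodes N-cadherin, a calcium-dependent adhesion protein. Both of its regions were intronic and far from the main start. The region 135.4 kb from the start (chr18:16673627-16674155) was common, with a fold of 4.9997 in NfiA Mixed, 5.98 in NfiA CD1, 6.27 in NfiB Mixed, 9.15 in NfiB CD1, 6.31 for NfiX Mixed and 4.20 for NfiX CD1. Its peaks rested on 12 to 30 fragments, and the NfiX CD1 peak was low in its list, at a percentile of 9.91. With only peaks of −log10 q of 5 or more, that peak was lost and the region was no longer common. The region 198.6 kb from the start (chr18:16610320-16610935) was seen in 4 libraries, with a fold of 4.90 in NfiA Mixed, 11.2 in NfiB Mixed, 8.30 in NfiB CD1 and 10.6 in NfiX Mixed. It ranked higher than the common region in NfiB Mixed and NfiX Mixed and lower in NfiA Mixed and NfiB CD1. Recurrence and rank therefore picked different regions at this gene.

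Efnb1 encodes ephrin-B1, a membrane-bound ligand of EphB receptors. It had 2 regions, and NfiA Mixed and both NfiX libraries had no peak at either. The region 0.983 kb upstream of the start (chrX:99135008-99135289) had a fold of 4.23 in NfiB Mixed and 3.33 in NfiB CD1. The other (chrX:99225056-99225519), 89.2 kb from the start, had a fold of 5.12 in NfiA CD1, 3.68 in NfiB Mixed and 5.35 in NfiB CD1. Its summits lay 87.2 kb from the nearest TSS, inside the limit of 100 kb. The peak closest to that limit was an Etv1 peak of NfiA Mixed at 91.7 kb, with a fold of 3.72 and a percentile of 11.7, and the first beyond it was an Efnb1 peak of NfiB CD1 at 108.7 kb, with a fold of 3.36 and a percentile of 8.28. All 5 Efnb1 peaks were below the middle of their lists.

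**Figure D4:**
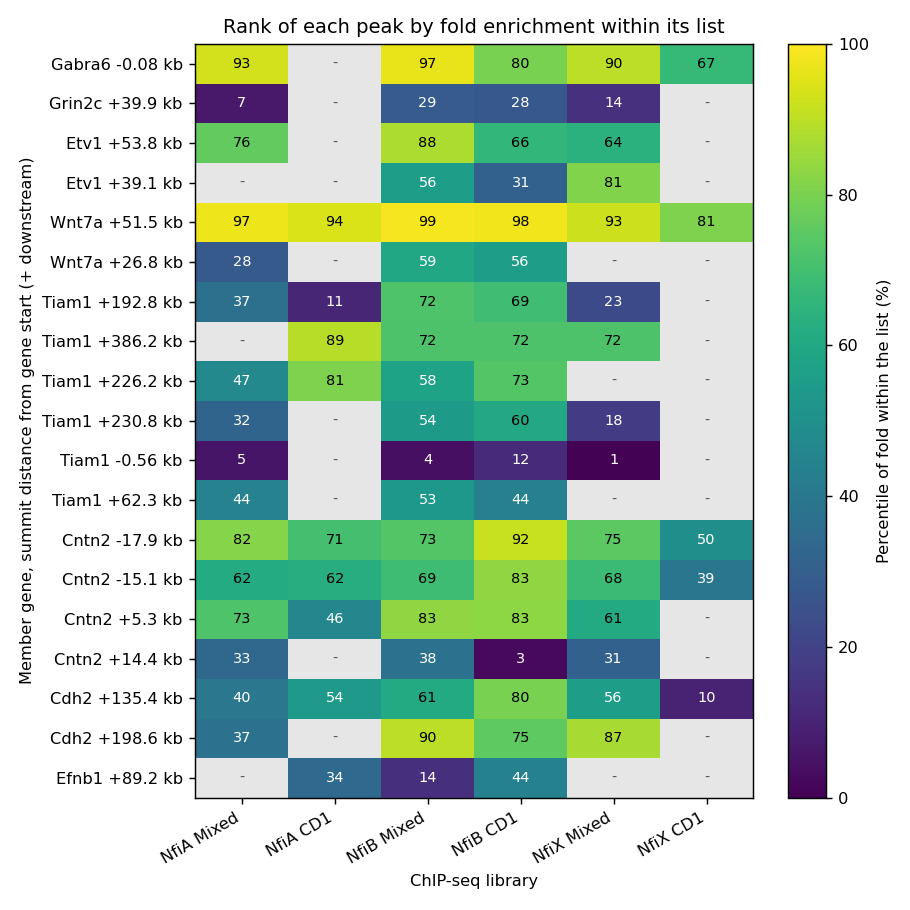
Percentile of fold within the list for the 19 regions seen in 3 or more libraries, by gene and distance from the gene start (rows) and library (columns); grey cells with a dash had no peak. The Wnt7a region 51.5 kb from the start is at 80.8 or higher in all 6 libraries, and NfiX CD1 has values in 5 rows.

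The series asks which targets the factors share, so the 4 common regions were tested for whether the libraries of 1 factor were closer to each other than to those of other factors. The mean gap in percentile between same-factor libraries was compared over the 15 ways to pair the 6 libraries (exact permutation, one-sided), where the smallest possible p is 0.0667 and 0.05 cannot be reached. At the Wnt7a region the gap was 5.16 points, against a mean of 7.15 over all pairings (exact permutation p = 0.0667, adjusted p = 0.267 over the 4 regions). At Cdh2 it was 26.2 against 27.7 (exact permutation p = 0.333, adjusted p = 0.444). At the nearer Cntn2 region it was 14.6 against 16.4 (exact permutation p = 0.333, adjusted p = 0.444), and at the farther one 18.1 against 16.2 (exact permutation p = 1, adjusted p = 1). No grouping by factor was shown at these regions. Between backgrounds, the Mixed minus CD1 difference in percentile at Wnt7a was 2.94 points for NFIA, 0.77 for NFIB and 11.8 for NFIX (mean 5.16, exact two-sided sign-flip permutation over 3 factors p = 0.25, the smallest possible, adjusted p = 1). At the other 3 common regions the sign differed between factors, with exact permutation p of 0.75 to 1.

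Other genes, 76 in 9 lists, were set beside the 8 genes. The lists share a family or process with them, apart from the list of progenitor genes. A common region was found at 40 of the 76 (52.6%), against 12.9% of all protein-coding genes. These genes are longer still, with a median body of 103 kb. Of the 52 with 30 kb or more, 35 had one, against 25.2% of all genes of that length. By list the counts were 4 of 11 for receptor subunits, 9 of 13 for other late maturation genes, 1 of 2 for PEA3 factors, 2 of 7 for Wnt partners, 4 of 7 for Rac exchange factors, 7 of 9 for contactins and the L1 family, 6 of 8 for cadherins and catenins, 3 of 7 for ephrin-B ligands and EphB receptors and 4 of 12 for progenitor genes. The lists were drawn up with earlier results of these data known, so the counts are descriptions.

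Among the genes of these lists the highest-ranked common region was at Vav3, a Rac exchange factor like Tiam1, with folds of 13.5 to 32.0 (chr3:109707621-109708744). The next was at Mef2a, a transcription factor of synapse maturation, with folds of 9.79 to 24.0. Cdh8, a cadherin like Cdh2, had folds of 8.81 to 21.4, and Ctnna2, an alpha-catenin that links cadherins to actin, 8.21 to 16.1. Cntn6, a contactin like Cntn2, had folds of 7.75 to 21.6. Arhgef7, a further Rac exchange factor, had folds of 8.25 to 17.6. The list went on with Gli2 and Ptch1 of the hedgehog pathway, Syt1 and Snap25 of the synaptic vesicle machinery, Ctnnb1 and Ephb1, at mean percentiles of 88.6 to 90.04. Of the PEA3 relatives of Etv1, which had 0 common regions, Etv5 had 3 and Etv4 had 0, and Grin1, Grin2a and Grin2b had 1 each where Grin2c had none. Gene length differs here: 28.0 kb for Grin1, 428 kb for Grin2a and 460 kb for Grin2b, against 18.1 kb for Grin2c.

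Genes with the most similar profile were sought by the percentile of the strongest peak in each of the 6 libraries, with 0 for no peak. For Wnt7a this was Epha4, which encodes an Eph receptor, at a distance of 2.53 percentile points (Euclidean, over 6 libraries). For Cntn2 it was Usp3 at 9.57 points, and for Cdh2 it was Gm4340 at 20.6 points. Gm4340 had no peak in NfiX CD1, where Cdh2 stood at 9.91. The strongest peaks of a gene can come from different regions, as they did at Cdh2. Epha4 stood at 95.4 in NfiA Mixed, 94.6 in NfiA CD1, 98.0 in NfiB Mixed, 96.3 in NfiB CD1, 92.9 for NfiX Mixed and 80.7 for NfiX CD1. Each gene was picked on these same values, so the closeness of Epha4 to Wnt7a follows from the choice.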

How the data were processed

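The 6 ChIP-seq peak lists of granule neuron progenitors were used, 1 per library of NFIA, NFIB or NFIX. Per the submitters' processing notes, MACS2 2.1.0, Bowtie2 2.2.6 and SAMtools 1.4.1 were used on the build mm10. Read filters, the calling threshold and whether input served as control were not given in the sources used here. For each peak the authors deposited a fold enrichment, a ratio over the local background, and a −log10 p-value and −log10 q-value, all from their peak caller; the highest q in a list was 0.0411 to 0.0492. These were used to rank and filter peaks within a list and to work out fragment counts; log2 folds were set side by side across libraries only as an alternative.

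Overlapping peaks (1 bp or more) of the 6 lists were joined into regions. Genes and start sites came from GENCODE M21 on the same build (all transcripts of protein-coding genes), and promoter windows from RefSeq (GRCm38.p6). Fragment counts were solved from each deposited fold and p. The fold was taken as fragments over local background with 1 added to each, and p as a Poisson tail. A whole number fitted 111 of 111 peaks within 0.002 on the −log10 p scale, and 0 of 111 once the p-values had been shifted. Intervals cover counting error only. Read totals were not used here. Tests were exact permutations over libraries with Benjamini-Hochberg adjustment over the common regions (scipy 1.17.1). No list was tested. Solving for fragments and joining peaks were tested on simulated data.

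The genes, lists and rules were chosen with earlier results of these data known. All 8 genes are named, with up to 3 regions each by number of libraries and then mean percentile. Of the other lists, the 12 genes with the highest mean percentile are named. Mentions outside this rule (the other regions of a gene, Etv4, Etv5, Grin1, Grin2a, Grin2b and neighbouring genes) were chosen after their values were seen.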

Additional observations from a re-analysis of the deposited data

Results flagged for a closer look

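At 3 common regions the Mixed minus CD1 difference in percentile ran in opposite directions for NFIX and NFIB. Each difference rests on 1 library per factor and background, and the difference between factors was not tested. At Cdh2, 135.4 kb from the start, it was 45.7 points for NFIX and -18.7 for NFIB, 64.4 apart. At the Cntn2 region 17.9 kb upstream it was 24.7 for NFIX and -18.4 for NFIB, 43.2 apart. At the Cntn2 region 15.1 kb upstream it was 28.6 for NFIX and -14.4 for NFIB, 43.0 apart. The NfiX lists differ most in length, with 21443 peaks in Mixed and 7497 in CD1, and the part of list length in these differences was not tested.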

How the results depend on the processing

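Counts at the 8 genes depended most on list length and on the assignment rule. With the 7497 strongest peaks of each list there were 33 peaks, 11 regions and 1 common region, at 1 gene, Wnt7a. With gene bodies alone there were 60 peaks, 21 regions and 1 common region, at 1 gene, Cdh2. Regions in 5 or more libraries, an alternative chosen after seeing the data, were found at 5 genes. A minimum −log10 q of 5 left 3 common regions at 2 genes, Cdh2 being lost. A limit of 50 kb, start sites of all biotypes and merging by summits within 200 bp each kept these counts within 1.5 times. With 1 library left out there were 81 to 106 peaks, 34 to 39 regions, 4 to 6 common regions and 3 to 4 genes with one; the highest counts of common regions, 6 and 5, came without NfiX CD1 and without NfiA CD1. The number of common regions closest by factor was 1, and also 1 with the replicate block (factors permuted within background, smallest possible p 0.167), but 0 with the percentile of −log10 q and 0 with log2 folds. The labels number no replicates, so the block rests on background alone. Common regions with Mixed above CD1 for every factor numbered 1 to 2 with a factor left out, 2 without NFIB. With libraries left out one at a time, the added gene with a common region was Gabra6 without NfiA CD1 and Tiam1 without NfiX CD1. Counts of 12 to 30 fragments limit the Cdh2 folds.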
